A study of Mus musculus with 6 samples.

Results

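The genes described here are 8 genes of haemoglobin and the red blood cell: the alpha globin genes Hba-a1 and Hba-a2, the beta globin genes Hbb-b1, Hbb-b2 and Hbb-bt, the haem enzyme gene Alas2, and Slc4a1 and Epb42, which encode red cell membrane proteins. They were chosen by name, through the RefSeq accession that the array files give for each probe. Each of the 8 genes had 1 probe, so 8 of the 55681 probes on the array belong to them. After the filter on dim probes 7 of the 8 remained, among 26887 genes and unnamed features tested, and Epb42 did not pass. Their signal was read in whole pituitaries of 6 mice on one-colour Agilent arrays, with 1 array per animal.

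The mice were virgin females of 8 weeks on a C57BL6 background. In the KO group (n = 3) the animals were Jmjd2a-/-, and in the WT group (n = 3) they were Jmjd2a+/+ littermates. Jmjd2a, now named Kdm4a, encodes a demethylase of histone H3. All 6 females had been exposed to soiled bedding of a stud male to start the oestrus cycle, and the glands were taken 24 h later, after cervical dislocation, and rinsed in buffered saline. The labels name no promoter or Cre driver and do not say which part of the gene was deleted.

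Haemoglobin, the oxygen carrier of the red cell, is built from alpha and beta globin chains, each holding a haem group. Globin messenger RNA is made in erythroid precursors of the bone marrow and spleen and is carried into the circulation by reticulocytes, the young red cells, which have lost their nucleus but still hold RNA. A gland with many vessels, such as the pituitary, is therefore collected together with the blood in it. In RNA from a whole gland, fewer cells of a type and less RNA per cell cannot be told apart.

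Each array had 34634 to 40567 probes well above background. Every level below is a log2 spot signal relative to the array's own 75th percentile, which was 171 to 313 intensity units. The levels of different probes are not compared with each other, since probes differ in brightness. The number of arrays limits the precision of each value. The pituitary hormone genes Gh and Prl, which check the tissue, read 9.12 to 9.99 and 8.80 to 9.60. The brighter probe of the targeted gene Kdm4a read 2.14, 1.90 and 1.85 in WT and 1.45, 1.20 and 1.36 in KO (limma adjusted p = 0.237). Its other probe was well above background on 2 of 6 arrays, and the labels do not place either probe relative to the deletion.

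The globin signal differed widely among KO animals. In 5 of the 7 genes tested, KO replicate 1 gave the highest value of all 6 arrays and KO replicate 2 the lowest, with the 3 WT arrays between them. The KO mean lay below the WT mean for all 7, but the groups overlapped for all 7 and no gene passed the test. Before these values, the regions upstream of 4 of the genes are shown, 3 with like profiles across the arrays (Hba-a1, Hbb-bt and Alas2) and Epb42, which was mostly at background.

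RefSeq's table for GRCm38.p6 matched 5 of the 8 genes, and 4 of them are printed as the 250 bases before the start of the gene, 5′ to 3′ on the gene's strand. Hba-a1 lies on the plus strand (chr11:32283422-32283671), Hbb-bt on the minus strand (chr7:103813924-103814173), Alas2 on the plus strand (chrX:150547167-150547416) and Epb42 on the minus strand (chr2:121036878-121037127). Capitals mark matches on either strand to 4 letter sets known from globin promoters. They are GATAA for the motif of GATA factors, CACCC for the box bound by Klf factors, CCAAT for the box of that name and TATAA for the box that places the start. Neighbouring and overlapping matches run together in capitals.
Hba-a1: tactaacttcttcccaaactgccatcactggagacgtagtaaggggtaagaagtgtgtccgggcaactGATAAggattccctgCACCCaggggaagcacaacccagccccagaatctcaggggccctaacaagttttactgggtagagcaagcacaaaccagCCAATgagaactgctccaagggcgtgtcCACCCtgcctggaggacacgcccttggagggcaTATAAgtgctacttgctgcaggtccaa
Hbb-bt: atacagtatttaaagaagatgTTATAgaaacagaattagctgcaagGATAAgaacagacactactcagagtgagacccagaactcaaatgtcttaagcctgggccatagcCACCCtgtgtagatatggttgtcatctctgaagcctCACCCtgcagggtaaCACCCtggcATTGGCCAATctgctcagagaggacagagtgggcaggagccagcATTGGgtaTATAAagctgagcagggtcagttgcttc
Alas2: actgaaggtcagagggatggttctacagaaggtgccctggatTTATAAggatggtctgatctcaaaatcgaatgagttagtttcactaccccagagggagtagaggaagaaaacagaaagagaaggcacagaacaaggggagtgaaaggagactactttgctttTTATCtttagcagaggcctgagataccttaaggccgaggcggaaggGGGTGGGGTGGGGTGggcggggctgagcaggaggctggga
Epb42: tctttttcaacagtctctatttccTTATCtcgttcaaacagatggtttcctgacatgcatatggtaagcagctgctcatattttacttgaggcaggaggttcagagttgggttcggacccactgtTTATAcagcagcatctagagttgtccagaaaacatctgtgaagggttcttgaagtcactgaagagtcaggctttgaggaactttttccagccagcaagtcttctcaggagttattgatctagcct
The Hba-a1 stretch held all 4 letter sets, with GATAA starting 182 bases before the gene start, CACCC at 167 and 60, CCAAT at 88 and TATAA at 27. Upstream of Hba-a2 the same 4 sets stood at 185, 170, 63, 91 and 30, and the shared 247 bases of both alpha globin stretches were identical. The Hbb-bt stretch also held all 4, with GATAA at 204, CACCC at 140, 104 and 89, CCAAT on the minus or plus strand at 80, 75 and 36, and TATAA at 28 on the plus strand and 229 on the minus strand. In Alas2, which encodes the erythroid form of the first enzyme of haem synthesis, GATAA stood on the minus strand at 86 and CACCC on the minus strand at 40, 35 and 30. Its TATAA matches at 208 and 207, on opposite strands, overlap, and CCAAT had no match. The Epb42 stretch matched only GATAA (226, minus strand) and TATAA (125, minus strand). Of 32851 promoters of the same length, 22.6% held GATAA, 52.0% held CACCC, 33.8% held CCAAT and 22.8% held TATAA, and 0.968% held all 4. A match describes letters only and is not evidence of binding.

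The alpha globin gene Hba-a1 read 8.19, 7.96 and 7.67 on WT replicates 1, 2 and 3, and 8.48, 6.91 and 7.32 on KO replicates 1, 2 and 3. KO replicate 1 was above all WT arrays and the other KO arrays were below all of them, so the groups overlapped. The KO arrays spanned 2.96-fold and the WT arrays 1.44-fold. The WT mean was 7.94 ± 0.26 and the KO mean 7.57 ± 0.81 (SD, n = 3 each), a log2 fold change of -0.37 ± 0.39 (standard error; limma adjusted p = 0.673). On the linear scale KO stood at 77.4% of WT, with a 95% interval of 40.8% to 147%.

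The probe of Hba-a2, the neighbouring alpha globin gene, gave a different order of arrays. It read 9.43, 8.74 and 9.08 in WT and 8.93, 8.54 and 8.52 in KO. WT replicate 1 was highest here, and KO replicate 1 lay inside the WT range. The difference was -0.42 ± 0.21 (standard error; limma adjusted p = 0.436), with the smallest unadjusted p of the 7 genes (0.0896). With quantile normalization the difference was -0.15, and in the authors' deposited values -0.074. This spot ranked 9 by brightness among the 26887 features, at 87167 to 133843 intensity units, and its raw signal spanned only 1.54-fold over the 6 arrays against 3.14-fold for Hba-a1. Among the 20 brightest features the raw span had a median of 1.29-fold, and the 1.54-fold of Hba-a2 was the widest of the 20, while no spot was marked as saturated. The root mean square difference between the centred profiles of Hba-a2 and the hormone genes Gh, Prl, Pomc and Cga was 0.16 to 0.17 (log2), against 0.31 to 0.53 between Hba-a2 and the other 6 globin and red cell genes. Before the 75th percentile was subtracted, the Hba-a2 signal was highest on WT replicate 2 (133843 intensity units) and lowest on KO replicate 2 (87167). The parts of spot brightness and of the scaling in the profile of Hba-a2 were not tested.

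The beta globin genes followed Hba-a1. Hbb-bt, an adult beta chain gene, read 6.76, 6.57 and 6.35 in WT and 7.21, 5.33 and 5.96 in KO, so that 1 KO array was above all WT arrays and 2 were below all of them. Hbb-b2 read 4.97, 4.77 and 4.34 in WT and 5.23, 3.60 and 4.18 in KO. Hbb-b1 read 3.83, 3.35 and 3.27 in WT and 4.09, 2.44 and 2.98 in KO. Both showed the same arrangement of arrays as Hbb-bt. The KO arrays spanned 3.67-fold for Hbb-bt, 3.08-fold for Hbb-b2 and 3.13-fold for Hbb-b1, against 1.33-fold, 1.54-fold and 1.47-fold within WT. The log2 fold changes were -0.39 ± 0.44, -0.36 ± 0.40 and -0.31 ± 0.41 (standard errors), with limma adjusted p of 0.691, 0.691 and 0.730.

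Which beta globin copy each of these probes measured is uncertain. C57BL/6 mice carry the beta globin genes Hbb-bs and Hbb-bt, while Hbb-b1 and Hbb-b2 are the gene pair of other inbred strains. The copies are nearly identical in sequence, as are Hba-a1 and Hba-a2, and the probe sequences were not used here. No probe matched the accession of Hbb-bs. Signal under the names Hbb-b1 and Hbb-b2 was nevertheless well above background on all 6 arrays.

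Alas2, whose enzyme starts haem synthesis in erythroid cells, had the widest spread of the 7 genes. It read 2.03, 1.99 and 1.67 in WT and 2.62, 0.59 and 1.17 in KO, a span of 4.09-fold in KO and 1.28-fold in WT. As with the beta globins, KO replicate 1 stood above and the other KO arrays below all WT arrays. The log2 fold change was -0.43 ± 0.48 (standard error; limma adjusted p = 0.687), or 74.0% of the WT signal with a 95% interval of 33.7% to 163%.

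Slc4a1, which encodes band 3, the anion exchanger of the red cell membrane, read -1.48, -1.34 and -1.39 in WT and -0.99, -1.75 and -1.94 in KO. KO replicate 1 was again highest, but KO replicate 3 rather than replicate 2 was lowest. The log2 fold change was -0.16 ± 0.25 (standard error; limma adjusted p = 0.780). Epb42, which encodes protein 4.2, a partner of band 3, was well above background on 1 of 6 arrays. It read -6.75, -6.97 and -6.14 in WT and -7.05, -2.40 and -6.61 in KO. The high value came from a single spot on KO replicate 2, at 44.3 intensity units against 1.59 to 3.12 on the other 5 arrays, and on the array where most of the other members were lowest. The groups overlapped (exact two-sided permutation p = 0.7), and no fold is given because the other arrays had only background.

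**Figure D1:**
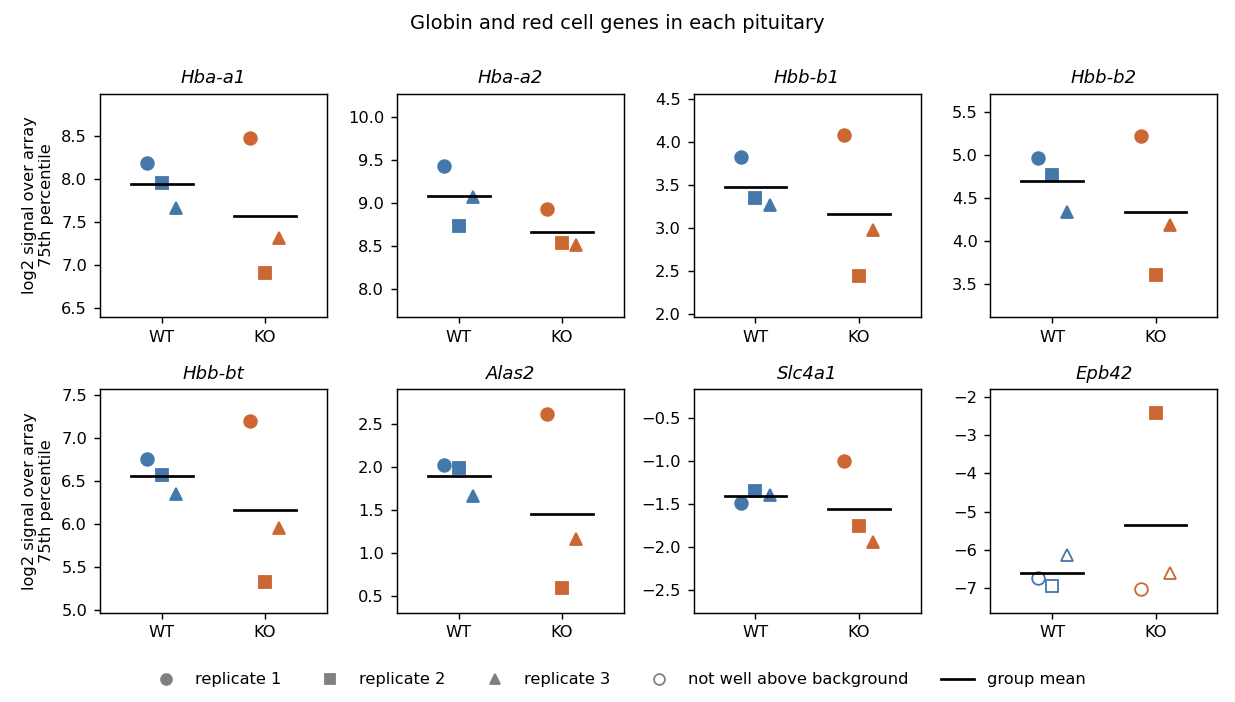
Log2 signal relative to the array's 75th percentile (vertical axis, scaled per gene) of the 8 genes in WT and KO pituitaries; each point is 1 animal, its shape the replicate number, open points were not well above background and bars are group means. KO replicate 1 is the highest point in 6 of the 8 panels, and for Epb42 only KO replicate 2 is above background.

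By limma over all 26887 genes and features, 0 of the 7 members were called at an adjusted p under 0.05, and 0 had an unadjusted p under 0.05. The background was the same for adjusted calls (0% of all features) and 12.8% for an unadjusted p under 0.05 (3446 features). The groups overlapped in all 7 members, whereas they did not overlap in 20.6% of all features. Exact two-sided permutation tests over the 10 splits of the arrays gave p from 0.2 to 0.6, where 0.1 is the smallest possible. The members' median log2 fold change was -0.37, against -0.076 for all features, and 7 of 7 lay below 0, as did 61.0% of all features. All 7 also lay below the median of all features. The share of all features below 0 was 51.4% in the authors' value table, 47.7% with quantile normalization and 35.7% with median centring. Median centring moved the median of all features from -0.076 to 0.10, and with it Slc4a1 read 0.02, while all 7 members stayed below that median.

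The KO mean depended on which KO animal was counted. Without KO replicate 2 the members' median log2 fold change was 0.00065 and 4 of the 7 genes (Hbb-bt, Hbb-b2, Hbb-b1 and Alas2) had values above 0. Without KO replicate 1 it was -0.80, with a lowest adjusted p of 0.452 among the 7. Without KO replicate 3 it was -0.28 and Slc4a1 read 0.03. Without WT replicate 1 it was -0.24. Within the first of the 2 slide rows, which held 2 arrays per group, it was -0.015, and Hbb-bt, Hbb-b2 and Alas2 were above 0. In the second row it was -1.05 between the single KO array, replicate 2, and the single WT array, also replicate 2. KO replicate 3 alone, an alternative chosen after seeing the data, gave a members' median of -0.56.

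**Figure D2:**
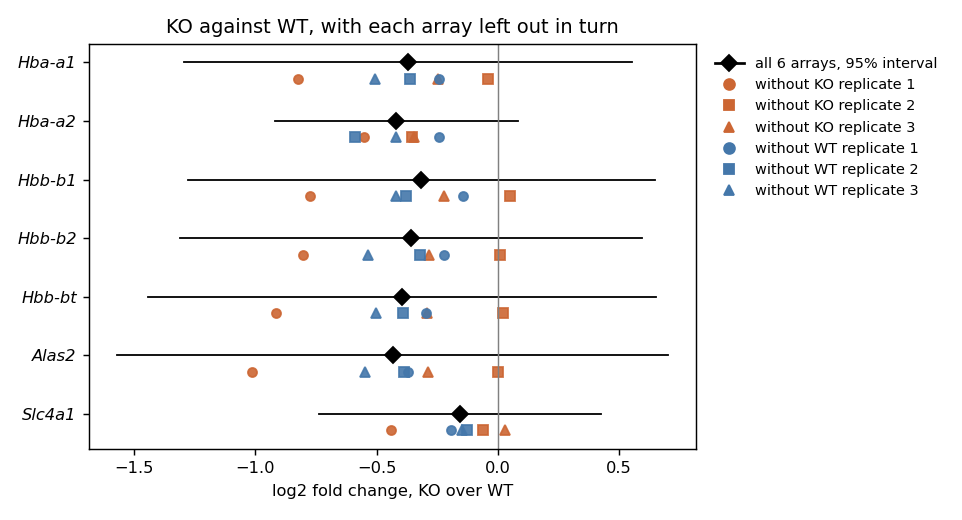
Log2 fold change of KO over WT (horizontal axis) for the 7 genes tested: diamonds with lines are limma estimates with 95% intervals from all 6 arrays, and the coloured points below them leave out 1 array. All 7 intervals cross 0, and the orange circles (without KO replicate 1) lie lowest for all genes but Hba-a2, from -1.02 for Alas2 to -0.44 for Slc4a1 among those.

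The spread among KO animals was wide for most of these genes. The median standard deviation over the 7 genes was 0.82 (log2) among KO arrays and 0.26 among WT arrays, while over all features it was 0.15 among KO arrays and 0.23 among WT arrays. The KO standard deviation exceeded the WT one in 6 of 7 members, the exception being Hba-a2, and in 30.3% of all features. With quantile normalization and in the authors' deposited values it was larger in 7 of 7, so the exception of Hba-a2 depended on the processing. Only 0.617% of all features had a KO standard deviation above that of Alas2, 0.848% above that of Hbb-bt, and 1.24% to 1.39% above those of Hbb-b1, Hbb-b2 and Hba-a1. The share was 5.26% for Slc4a1 and 27.1% for Hba-a2. In WT the same measure ran from 27.3% for Hba-a2 to 92.5% for Slc4a1, with 58.1% for Alas2 and 41.2% for Hba-a1. The difference between the groups' spreads was not tested, and each rests on 3 animals.

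**Figure D3:**
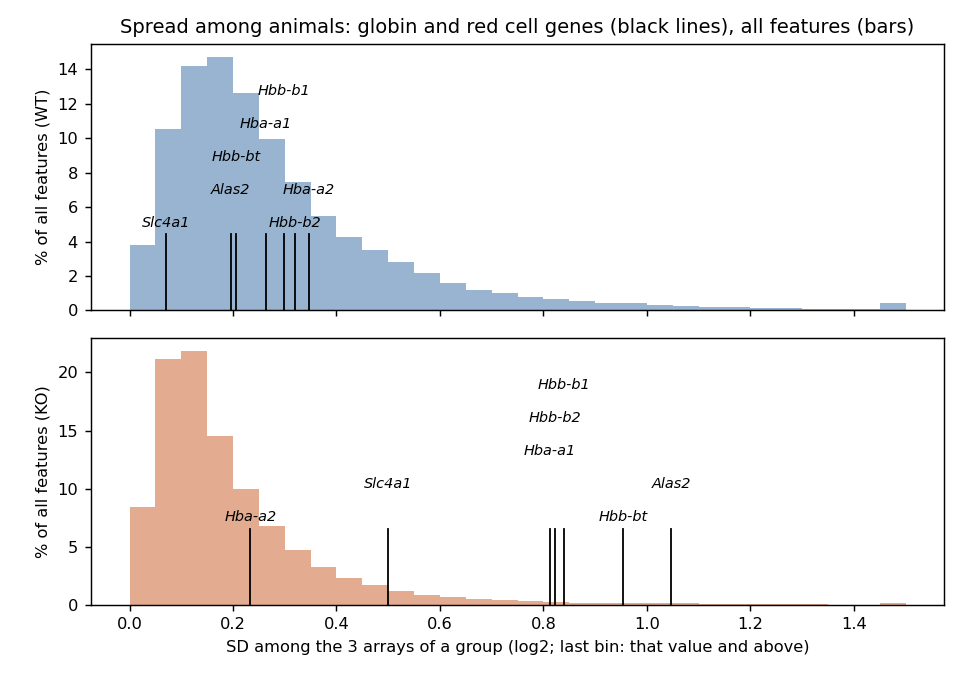
Percent of all features tested (bars, vertical axis) by the standard deviation of the log2 signal among 3 WT arrays (upper panel) and 3 KO arrays (lower panel), with black lines at the values of the 7 globin and red cell genes. In KO, 5 of the lines stand between 0.81 and 1.05, beyond nearly all features, while in WT all 7 lie at 0.35 or below.

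Hba-a1, the beta globin genes and Alas2 had like profiles across the 6 arrays, and Hba-a2 stood apart. After each gene was centred on its own mean, the mean of the 7 members was 0.39, 0.14 and -0.0056 on WT replicates 1, 2 and 3, and 0.65, -0.77 and -0.41 on KO replicates 1, 2 and 3. Among Hba-a1, the beta globin genes and Alas2, the root mean square difference between centred profiles was 0.066 to 0.19 (log2) in the 10 pairs. It was 0.32 to 0.42 between Slc4a1 and these 5 genes, and 0.31 to 0.53 in the 6 pairs that include Hba-a2. KO replicate 1 was the highest array for 6 of 7 members, against 12.4% of all features, and KO replicate 1 was highest together with KO replicate 2 lowest for 5 of 7, against 1.25%. Near-identical globin copies can share labelled RNA between probes, so the globin probes are not independent of each other, while Alas2 and Slc4a1 are separate genes. In the authors' deposited values Hba-a2 read 17.01, 16.51 and 16.56 in WT and 16.995, 16.31 and 16.55 in KO. There it was lowest on KO replicate 2, like Hba-a1, the beta globin genes and Alas2.

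The 8 named genes whose centred profile was most like the members' mean were Slc6a20a, Slurp1, Gm6936, Rspo3, C2cd4c, Zdhhc22, Mab21l3 and Unc93a2, with root mean square differences of 0.096 to 0.15 over the 6 arrays. The median over the 16454 other named genes was 0.52. For Slc6a20a, a transporter gene, the centred values were 0.36, 0.13 and 0.064 in WT and 0.63, -0.61 and -0.56 in KO. None of these 8 was on the lists of red cell genes. From those lists, and chosen after the values were seen, Slc25a37 stood at place 39 (0.22) of 16454. It encodes mitoferrin, the mitochondrial iron importer of erythroid cells. Slc25a37 read 0.57, 0.64 and 0.78 in WT and 1.13, 0.11 and 0.16 in KO. KO replicate 1 was above and the other KO arrays were below all WT arrays, the arrangement of the beta globins.

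**Figure D4:**
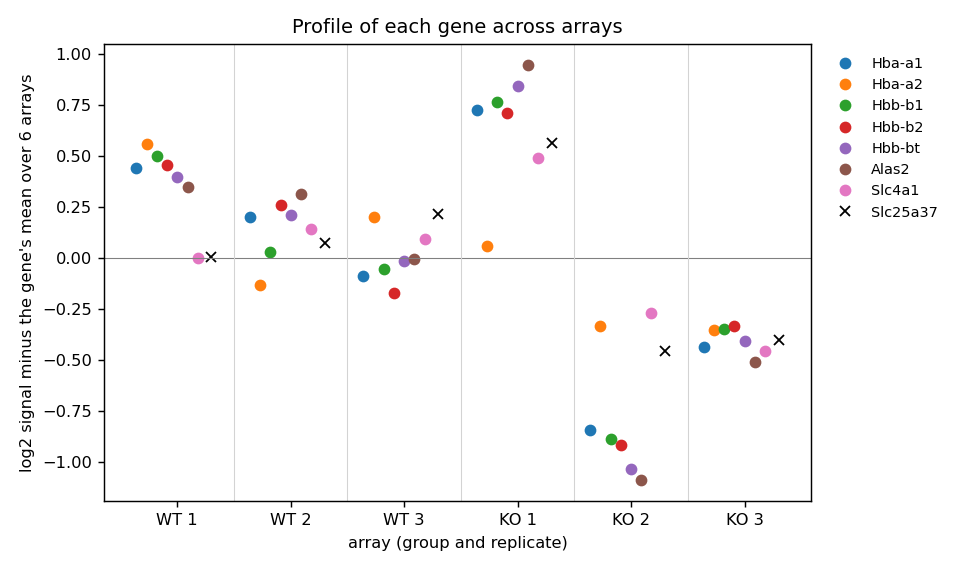
Log2 signal of each gene minus its mean over the 6 arrays (vertical axis) by array (horizontal axis), for the 7 members tested (dots) and for Slc25a37 (crosses). Most members stand high on KO replicate 1 (0.49 for Slc4a1 to 0.95 for Alas2) and low on KO replicate 2, and Hba-a2 (0.06 on KO replicate 1) departs from the others.

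Of 11 other globin genes listed, 8 were tested, with 5 above and 3 below 0, a median log2 fold change of 0.04 and 0 called. The embryonic beta-type gene Hbb-bh1 read -2.01 to -1.64 in WT and -2.10 to -1.62 in KO, and Hbb-y, another embryonic gene, -3.81 to -2.98 and -3.59 to -2.97. The groups overlapped for both, and KO replicate 2 was their highest array. The embryonic alpha-type gene Hba-x was well above background on 0 of 6 arrays. The genes of smallest p on this list were Mb, the muscle myoglobin gene (0.69 ± 0.35), Hbb-bh2 (0.22 ± 0.12) and the alpha-like Hbq1a (-0.47 ± 0.37), with standard errors and limma adjusted p from 0.436 to 0.588. Mb was well above background on 5 of 6 arrays and Hbq1a on 4 of 6.

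Genes of haem synthesis, a pathway of all cells, had values near 0. All 16 listed were tested, 6 above and 10 below 0, with a median of -0.076, the value of all features, and 0 were called. The mitochondrial transporter gene Abcb10 read -0.26 ± 0.12 and the haem exporter gene Flvcr1 0.20 ± 0.13 (limma adjusted p = 0.417 and 0.528). Alas1, the form of the first enzyme found in all tissues, read 3.23, 3.42 and 3.25 in WT and 3.28, 3.18 and 3.33 in KO and did not share the spread of Alas2 among KO arrays.

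Red cell membrane and cytoskeleton genes went both ways. Of 20 listed, 16 were tested, 7 above and 9 below 0 (median -0.11), and 0 were called. Xk, a membrane protein gene of the Kell complex, read 0.77 ± 0.14, and Sptb, the beta spectrin gene, 0.63 ± 0.22 (limma adjusted p = 0.224 and 0.349). Icam4, an adhesion molecule gene of red cells, was well above background on 0 of 3 KO arrays. Its group means were -3.88 in WT and -4.93 in KO, 2.07-fold lower (limma adjusted p = 0.224). This is the plain difference of the means and not a lower bound. Icam4 passed the filter on dim probes through its WT arrays alone, and its KO values rest on signal not well above background. The blood group genes Rhag and Kel were well above background on 0 of 6 arrays.

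Of the erythroid regulators, Gata1, the master factor of the lineage, was well above background on 2 of 6 arrays, and Klf1, which activates adult beta globin, read -4.52 to -3.83 in WT and -4.67 to -4.22 in KO, above background on all 6. Of 14 listed, 13 were tested, 6 above and 7 below 0 (median -0.034), with 0 called. Zbtb7a read 0.41 ± 0.16, Gfi1b -0.31 ± 0.16 and the Gata1 cofactor gene Zfpm1 0.29 ± 0.15 (limma adjusted p = 0.376, 0.436 and 0.444). Some of these regulators are also made in other cell types, Gata2 in the pituitary itself.

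Late erythroid and reticulocyte genes showed a median of -0.016, with 18 of 20 tested, 8 above and 10 below 0, and 0 called. Alox15, the lipoxygenase of reticulocytes, was well above background on 3 WT arrays and 0 KO arrays and was at least 2.21-fold lower in KO (group means -3.87 and -6.10, limma adjusted p = 0.224). This bound sets the WT mean against the dimmest signal that counts as well above background on each KO array. Alox15 read -3.97, -3.75 and -3.88 in WT and -5.36, -7.03 and -5.91 in KO, so that all 3 KO arrays, replicate 1 included, were below all WT arrays. The groups did not overlap in 20.6% of all features either. Alox15 passed the filter on dim probes through its WT arrays alone, and its KO values rest on signal not well above background. Tent5c read 0.47 ± 0.18 and Hemgn -0.33 ± 0.13 (adjusted p = 0.361 and 0.373). Many genes of this list, such as Prdx2 and Gpx1, are also active in other tissues.

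Genes of haem breakdown and iron handling had a median of -0.096, with 15 of 16 tested, 6 above and 9 below 0, and 0 called. Hmox1, the stress-inducible haem oxygenase, read 3.55, 4.14 and 3.26 in WT and 4.32, 4.07 and 4.11 in KO, a difference of 0.52 ± 0.23. Blvrb, a biliverdin reductase gene, read 0.40 ± 0.17 and the iron regulatory gene Ireb2 -0.88 ± 0.21 (limma adjusted p = 0.398, 0.393 and 0.268 in the order Hmox1, Blvrb, Ireb2). Ireb2 was dim, with group means of -3.73 in WT and -4.61 in KO, and was well above background on 2 of 3 KO arrays. Hmox1 was highest on KO replicate 1, and KO replicates 2 and 3 lay within the WT range.

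Markers of other blood and vessel cells were set beside the globin values. Platelet markers stood highest on KO replicate 1 for 4 of 6 genes tested, and their summed level was 5.64 there, against 2.26 to 3.12 on the other 5 arrays (linear, relative to the 75th percentile). Pf4, a platelet chemokine gene, read 0.48 on that array and -1.27 to -0.82 on the others, and Gp9 read -1.56 and -3.90 to -3.17. Treml1, the listed gene of smallest p, read 0.56 ± 0.26 (limma adjusted p = 0.416), and Gp1ba was above background on 0 of 6 arrays. The part of blood content in the globin profile was not tested.

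Neutrophil markers followed another array. They stood highest on WT replicate 3 for 6 of 8 genes tested, with a summed level of 18.9 there. WT replicates 1 and 2 had 6.53 and 8.16, and the KO arrays 5.04 to 5.07. S100a8 read -1.48, -2.08 and 1.23 in WT and -2.57, -2.82 and -2.30 in KO, all below the WT values. The globin profile was at -0.0056 on that array. Schwann cell and myelin markers were also highest on WT replicate 3 for 6 of 7 genes, with a summed level of 21.5 against 12.3 to 15.0 on the other 5 arrays.

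Vessel, macrophage and lymphocyte markers overlapped between the groups by their sums. The summed endothelial level was 39.0 to 46.0 in WT and 38.0 to 42.1 in KO, with 5 of 10 genes highest on KO replicate 1. Macrophage markers summed to 21.5 to 27.4 in WT and 22.5 to 25.7 in KO, and lymphocyte markers to 13.9 to 27.1 and 14.4 to 20.2. No gene of these 3 lists was called. Of these 3 lists, Cd79b, a B cell receptor gene, had the smallest adjusted p (0.70 ± 0.13, limma adjusted p = 0.224). Over all the related lists, 0 genes were called under any alternative with a test.

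**Figure D5:**
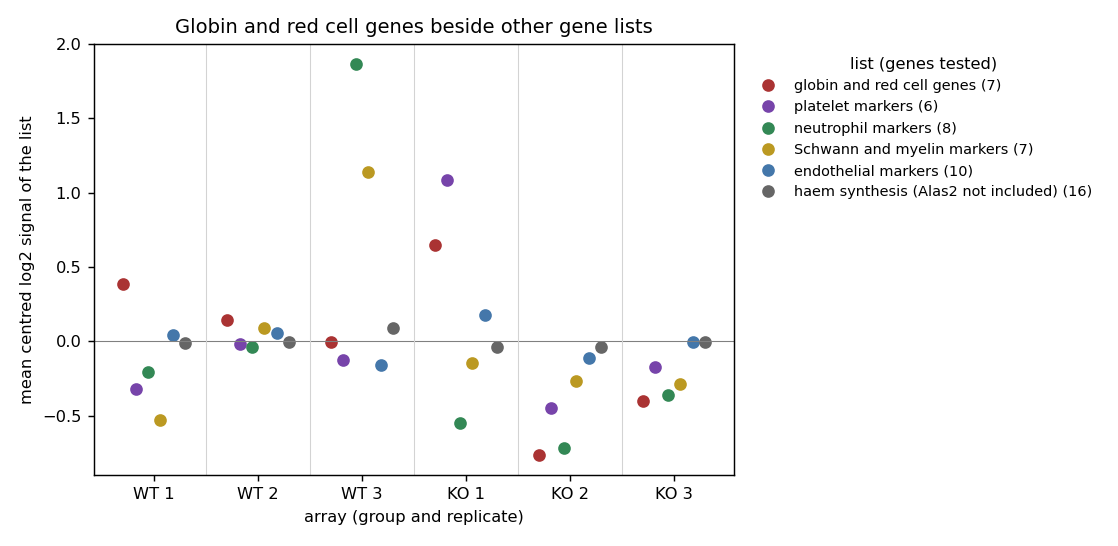
Mean over the genes of a list of the log2 signal minus each gene's mean (vertical axis) by array (horizontal axis), with the number of genes tested in brackets. On KO replicate 1 the globin and red cell genes (0.65) and the platelet markers (1.09) are high together, while the neutrophil (1.87) and Schwann cell markers (1.14) are high on WT replicate 3.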

How the data were processed

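Per the labels, Cy3-labelled RNA of each pituitary was hybridised to a one-colour array. Per the file headers, Agilent Feature Extraction 11.0.1.1 made the intensity values (gProcessedSignal) by subtracting background and detrending within each array, and all 6 arrays shared a slide and a scan. The authors also deposited log2 values of 29154 spots (column medians 8.25 to 8.26). How these were normalized and filtered is not stated in the labels. The submitters' processing notes list limma, with no version.

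Control and outlier spots were dropped, and replicate spots were averaged as log2 values. The array's 75th percentile was then subtracted. A probe had to be well above background on 3 or more arrays, and a gene was read from its brightest probe. RefSeq symbols (GRCm38.p6) matched 27656 of 55681 probes by accession. The groups were fitted with limma 3.58.1 under R 4.3.3 (lmFit, eBayes, two-sided), and p was adjusted by Benjamini-Hochberg over 26887 features, with calls under 0.05. The steps were tested on simulated data. The labels describe independent littermates. All members were named, with up to 3 genes of smallest p per list and the 8 genes closest in profile; other list genes were named after their values were seen. Some listed genes are not reported here. The members and lists were chosen with earlier results of these data known.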

Additional observations from a re-analysis of the deposited data

How the results depend on the processing

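Over 19 alternatives, Hba-a1 and Hba-a2 stayed below 0 in all, and no member was called in any alternative with a test. Within the first slide row alone Alas2 read 0.048, Hbb-b2 0.047 and Hbb-bt 0.027, and Slc4a1 read 0.023 with median centring. Leaving out each array in turn gave -1.02 to 0.00065 for Alas2, -0.77 to 0.050 for Hbb-b1, -0.80 to 0.0080 for Hbb-b2, -0.92 to 0.022 for Hbb-bt and -0.44 to 0.032 for Slc4a1. The members' median was -1.05 in the second slide row alone, which held 1 array per group and gave no test, and -0.80 to 0.00065 with an array left out. Without Hba-a2 it was -0.36, an alternative chosen after seeing the data. Over all genes, limma called 0 in the analysis described, 25 with normexp (offset 50), 19 after median centring, 27 from the authors' deposited values, 11 with a filter asking for all 6 arrays and 27 with a variance trend and robust fit, and 0 to 1 with an array left out (the 1 without WT replicate 1); the cause was not tested. Unadjusted p under 0.05 was reached by 3446 features with all arrays and by 1969 to 5508 with one left out, the extremes being KO replicate 3 and WT replicate 2. The replicate block left the members' median at -0.37 and called 0 genes. Replicate numbers did not pair the arrays: deviations of same-numbered arrays correlated at 0.15, -0.18 and -0.083 across features, and not every array correlated best with its own number. Over 7 processing alternatives the members' median standard deviation was 0.78 to 0.90 in KO and 0.22 to 0.30 in WT. Precision is limited by 3 arrays per group, and Epb42 by a signal at background.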

Other observations

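Ppbp, a platelet chemokine gene named after its values were seen, read -0.53 on KO replicate 1, against -4.21 to -2.71 on the other 5 arrays. Epb42 was above background only on KO replicate 2, where its median spot brightness was 73 units against 33 to 40 on the other arrays.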
